A study of Mus musculus with 8 samples.

Results

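The genes described here are 46 genes of blood and lymphatic vessel endothelium, measured in libraries sorted for lung epithelium. They were taken from the table of 43432 genes by symbol: 27 are shared by most endothelium, 4 mark general capillary cells, 4 aerocytes, 3 arteries, 2 veins and 4 lymphatic vessels, and 2 are lung endothelial genes given no subtype here. The list was put together with the high level of these genes in one genotype already known, so the differences that involve that genotype are a description and carry no test. The study profiled RNA of EpCAM+CD45- lung cells from C57BL/6J mice aged 14 weeks. ChiaRed is a reporter of Chia1, the gene of acidic mammalian chitinase (AMCase). The 3 wild-type libraries (WT) hold the whole EpCAM+CD45- gate. The 3 C/+ libraries (heterozygous for ChiaRed) and the 2 C/C libraries (homozygous for it) hold the ChiaRed+ cells of that gate. The sort and the genotype therefore cannot be told apart in a comparison with WT. C/+ and C/C are compared within the same gate, but they differ both in the number of ChiaRed alleles and in Chia1 transcript. These cannot be told apart either. Nothing in the labels says that the libraries of a group came from separate animals, and p-values then measure the spread between these samples, which may be technical.

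Endothelial cells line the vessels and are held together by junction proteins such as VE-cadherin (Cdh5), PECAM-1 (Pecam1) and claudin-5 (Cldn5). In the lung alveolus, general capillary cells carry GPIHBP1, the anchor of lipoprotein lipase, and aerocytes, large cells that lie against the alveolar epithelium, carry carbonic anhydrase 4 (Car4). Arterial, venous and lymphatic endothelium are set apart by transcription factors, of which Sox17, Nr2f2 and Prox1 are textbook examples. EpCAM, the adhesion molecule used in the sort, is a marker of epithelium and not of endothelium.

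Library totals ran from 17057216 to 52319957 counts. Chia1 lay between 223 and 454 CPM (counts scaled to the library's size) in the WT and C/+ libraries and at 1.45 and 0.365 CPM in the C/C libraries. Summed CPM of 5 epithelial genes that fit the gate, among them Epcam and Cdh1, ranged from 1172 to 1577 over the 8 libraries. The WT libraries stood apart from each other: a core endothelial index, the summed CPM of 10 of the genes including Cdh5, Pecam1 and Tie1, was 254 in WT 1, 103 in WT 2 and 56.6 in WT 3. It was 701, 783 and 465 in C/+ 1, 2 and 3, and 42.7 and 40.9 in C/C 1 and 2. The C/+ libraries were therefore all above the WT libraries, and both C/C libraries were below all of them. In sorted bulk RNA, fewer endothelial cells and less endothelial RNA per cell cannot be told apart.

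Markers of other cell types moved in the same groups. Summed mesothelial markers were 174, 59.0 and 57.5 CPM in C/+ 1, 2 and 3, against 7.57 to 27.0 in WT and 5.68 to 7.04 in C/C. All 6 tested mesothelial genes of 7 listed were called lower in C/C than in C/+, and 4 were called higher in C/+ than in WT. Of all tested genes, 5.33% were called lower in C/C than in C/+ and 3.42% higher in C/+ than in WT. Summed fibroblast markers were 147, 49.1 and 56.5 CPM in C/+, 8.57 to 29.3 in WT and 9.72 to 9.78 in C/C. Of 6 tested fibroblast genes of 8 listed, 4 were called higher in C/+ than in WT and 4 lower in C/C than in C/+. Mural markers were 13.3 to 31.0 CPM in C/+ and 6.77 to 12.7 in the other libraries, and 2 of 7 tested were called lower in C/C than in C/+. Club cell markers, which are epithelial, were 5510 to 9907 CPM in C/+ and 719 to 1387 elsewhere. Platelet markers stayed between 2.28 and 9.14 CPM, and leukocyte markers, with Lyz2 left out, between 3.65 and 9.60. Haemoglobin and Alas2 transcripts summed to 8.39 CPM in C/+ 1, 6.40 and 3.54 in C/C and under 1 CPM elsewhere. The order of the libraries differed between lists: mesothelial and fibroblast sums were highest in C/+ 1 among C/+ and in WT 2 among WT, whereas the endothelial index was highest in C/+ 2 and in WT 1. Their part in the endothelial result was not tested.

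**Figure D1:**
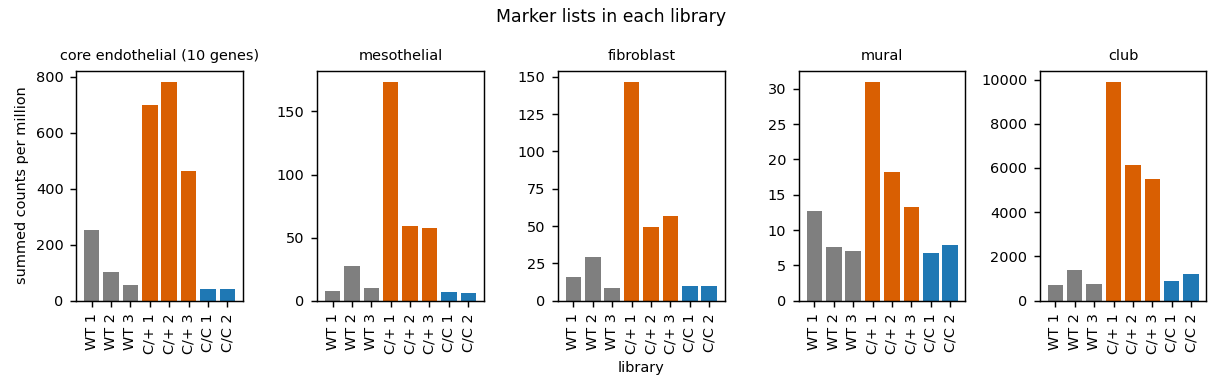
Summed CPM (y axis) of the 10 core endothelial genes and of mesothelial, fibroblast, mural and club cell marker lists in each of the 8 libraries (x axis). Grey bars are WT, orange bars C/+ and blue bars C/C, each bar 1 library; every list is highest in C/+, and C/+ 1 leads all lists but the endothelial one, which C/+ 2 leads at 783.

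Promoter sequence was at hand in RefSeq (GRCm38.p6) for 25 of the 46 genes, as the 250 bases before an annotated start. The stretches shown are those of 3 genes that were higher in every C/+ library than in any other and stand for 3 roles: Egfl7 for all endothelium, Kit for general capillaries and Car4 for aerocytes. Bases covered by any annotated exon were left out. The Egfl7 stretch lies within the annotated span of the gene, which begins at 26580014, and so precedes a start inside it. Capitals mark the letters AGGAAG or their reverse complement, a form of the core that ETS-family transcription factors such as Erg bind. Other forms of that core were not searched or marked, so a stretch without capitals may still hold them.
Egfl7, chr2:26580833-26581055, plus strand: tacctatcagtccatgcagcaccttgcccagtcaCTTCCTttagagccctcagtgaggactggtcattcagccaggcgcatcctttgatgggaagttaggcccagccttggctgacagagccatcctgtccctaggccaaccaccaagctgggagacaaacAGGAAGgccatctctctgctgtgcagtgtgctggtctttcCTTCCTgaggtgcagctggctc
Kit, chr5:75574737-75574915, plus strand: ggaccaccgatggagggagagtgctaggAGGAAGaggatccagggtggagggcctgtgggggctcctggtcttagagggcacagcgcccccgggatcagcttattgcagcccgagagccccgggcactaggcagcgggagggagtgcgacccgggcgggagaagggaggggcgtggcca
Car4, chr11:84957504-84957753, plus strand: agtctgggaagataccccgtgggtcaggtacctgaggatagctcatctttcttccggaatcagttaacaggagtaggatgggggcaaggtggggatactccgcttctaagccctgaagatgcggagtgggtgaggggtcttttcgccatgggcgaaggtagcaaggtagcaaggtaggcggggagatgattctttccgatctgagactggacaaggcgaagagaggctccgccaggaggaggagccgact
The Egfl7 stretch holds 3 such matches, the Kit stretch 1 and the Car4 stretch 0. Over the whole 250 bases, on both strands, 12 of the 25 genes had AGGAAG (48.0%), against 29.2% of 27025 genes with a promoter entry. ACAAT, a SOX core, was in 28.0% of the 25 and 28.3% of all, AGATAA, the core of a zinc finger family active in blood and vessels, in 4.0% and 10.3%, and GGGCGG, the Sp and KLF core, in 52% and 32.9%. Median GC content was 56.8% for the 25 genes and 52% for all. A match is a run of letters and not a site, and these shares carry no test.

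Among the genes shared by most endothelium, Cdh5, which encodes the adherens junction cadherin of endothelium (ENSMUSG00000031871, chromosome 8, 104101625 to 104144511 in GRCm38), was at 47.2, 18.2 and 8.27 CPM in WT 1, 2 and 3. It was at 139.5, 149.7 and 102 CPM in C/+ 1, 2 and 3, and at 5.69 and 6.99 CPM in C/C 1 and 2. The 3 groups did not overlap, with C/+ highest and C/C lowest. Pecam1, an adhesion molecule between endothelial cells (ENSMUSG00000020717, chromosome 11, 106654217 to 106750628), was at 34.8, 13.8 and 7.14 CPM in WT, 108, 119 and 67.5 for C/+ and 5.21 and 6.05 for C/C. Its groups did not overlap either, and WT 1 again led WT. Ptprb, the endothelial phosphatase VE-PTP, was at 51.9, 15.6 and 7.05 CPM in WT, 103, 133 and 81.0 for C/+ and 5.32 and 4.12 for C/C.

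Other abundant genes of the shared set kept more signal in C/C. Cav1, the main protein of caveolae, was at 36.7, 27.5 and 23.2 CPM in WT, 146, 114 and 69.3 for C/+ and 16.5 and 16.0 for C/C. Tspan7, a tetraspanin, was at 41.6, 19.0 and 12.9 CPM in WT, 97.6, 122 and 78.6 for C/+ and 14.5 and 17.8 for C/C. Vwf, von Willebrand factor, was at 25.8, 18.5 and 9.56 CPM in WT, 130.2, 106 and 63.8 for C/+ and 14.2 and 10.1 for C/C. For Tspan7 and Vwf the C/C libraries lay within the WT range, whereas for Cav1 they lay below it. Alveolar epithelium also carries some of these transcripts, Cav1 being known in alveolar type I cells. Esam, an adhesion molecule of endothelial junctions and platelets, did not follow the others: it was at 184, 213 and 201 CPM in WT, 205, 196 and 139 for C/+ and 197 and 175 for C/C, and all groups overlapped. With the C/C mean expressed as a percent of the C/+ mean, 35 of the 46 genes were under 10%, 6 (Egfl7, Vwf, Tspan7, Cav1, Tbx2 and Gja5) were between 10% and 25%, and 5 (Esam, Pdgfb, Nr2f2, Prox1 and Mmrn1) were above.

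Receptors of the shared set took the same order of groups. Kdr, VEGF receptor 2, was at 22.2, 12.8 and 7.23 CPM in WT, 97.0, 84.0 and 42.6 for C/+ and 4.02 and 4.38 for C/C. Tek, the angiopoietin receptor, was at 19.0, 7.31 and 4.48 CPM in WT, 37.6, 64.1 and 32.5 for C/+ and 4.61 and 2.29 for C/C. Calcrl was at 39.7, 15.7 and 8.31 CPM in WT, 116, 99.0 and 74.9 for C/+ and 4.61 and 2.63 for C/C. C/+ was above WT in all 3, and C/C was below WT for Kdr and Calcrl and overlapped it for Tek. Flt1 (VEGF receptor 1), Tie1 (the partner of Tek), Eng (a co-receptor of BMP9), Ramp2 (the partner of Calcrl), Robo4 and Cd93 were each higher in every C/+ library than in any WT library, with C/C means from 3.69% (Tie1) to 7.66% (Eng) of the C/+ mean. So were the junction and surface genes Cldn5, Icam2, Emcn, Clec14a, Ecscr and Tmem100, the matrix genes Mmrn2 and Egfl7, and the transcription factors Sox18 and Erg, with C/C means from 3.34% (Clec14a) to 20.3% (Egfl7). Pdgfb, the ligand that draws mural cells to vessels, was at 26.9, 31.3 and 26.4 CPM in WT, 48.4, 48.6 and 33.2 for C/+ and 26.5 and 20.1 for C/C, with every C/+ library above WT.

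**Figure D2:**
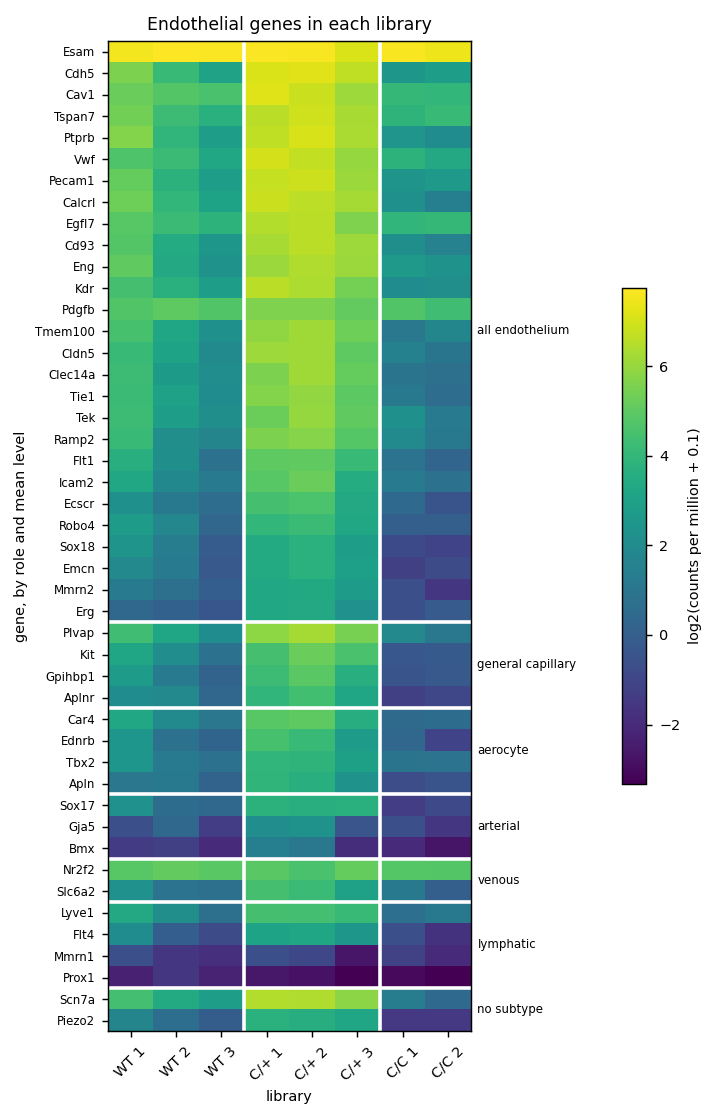
Heat map of the 46 genes (rows, by role and mean level) in the 8 libraries (columns), coloured by log2 of CPM plus 0.1. Most rows are brightest in the 3 C/+ libraries and darkest in the 2 C/C libraries; Esam and Nr2f2 are bright throughout, and Prox1 is dark throughout.

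The 4 general capillary genes shared the pattern. Gpihbp1 (ENSMUSG00000022579, chromosome 15, 75596628 to 75599481) was at 6.75, 2.32 and 1.04 CPM in WT, 19.2, 30.3 and 12.2 for C/+ and 0.643 and 0.756 for C/C. Plvap, the diaphragm protein of capillary fenestrae and caveolae, was at 20.1, 8.92 and 4.04 CPM in WT, 57.0, 76.6 and 43.9 for C/+ and 3.58 and 2.03 for C/C. Kit, the stem cell factor receptor, was at 9.36, 4.13 and 1.69 CPM in WT, 22.5, 36.8 and 23.3 for C/+ and 0.711 and 0.782 for C/C. In each of these genes the C/+ libraries lay above WT and the C/C libraries below WT. Aplnr, the apelin receptor, was at 4.08, 3.61 and 1.17 CPM in WT, 15.5, 20.5 and 9.12 for C/+ and 0.321 and 0.417 for C/C, again with no overlap.

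Scn7a and Piezo2, given no subtype, took the same order of groups, as did genes of other roles such as Cdh5, Car4 and Sox17. Scn7a was at 21.6, 10.7 and 7.07 CPM in WT, 88.0, 84.3 and 56.5 for C/+ and 2.5 and 1.28 for C/C. Piezo2 was at 3.13, 1.52 and 0.855 CPM in WT, 13.1, 11.6 and 9.06 for C/+ and 0.252 and 0.261 for C/C, so that neither gene's groups overlapped.

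The 4 aerocyte genes were also highest in C/+, with C/+ 3 below C/+ 1 and 2. Car4 (ENSMUSG00000000805, chromosome 11, 84957786 to 84966044) was at 9.67, 3.65 and 2.01 CPM in WT, 28.9, 31.3 and 11.6 for C/+ and 1.33 and 1.38 for C/C. Ednrb, the endothelin receptor type B, was at 5.51, 1.71 and 1.10 CPM in WT, 22.6, 17.4 and 6.82 for C/+ and 1.15 and 0.365 for C/C. Apln, the apelin ligand, was at 1.96, 2.13 and 1.06 CPM in WT, 15.0, 12.3 and 4.94 for C/+ and 0.505 and 0.626 for C/C. Tbx2, a T-box transcription factor, was at 5.43, 2.18 and 1.65 CPM in WT, 15.4, 14.3 and 7.59 for C/+ and 1.84 and 1.75 for C/C. For Ednrb 1 C/C library, and for Tbx2 both, lay within the WT range. C/+ 3 held 0.39 of the mean of C/+ 1 and 2 for Car4, 0.34 for Ednrb, 0.36 for Apln and 0.51 for Tbx2. Low values were not limited to this group: Icam2 was at 0.35, Slc6a2 at 0.39, Cldn5 at 0.45, Kdr at 0.47 and Gpihbp1 at 0.49, while Cdh5 was at 0.70 and Sox17 at 0.99.

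Arterial genes were at lower levels and less alike. Sox17, an arterial transcription factor, was at 4.73, 1.42 and 1.25 CPM in WT, 13.5, 12.1 and 12.7 for C/+ and 0.298 and 0.443 for C/C. Gja5, connexin 40, was at 0.543, 1.19 and 0.298 CPM in WT, 4.21, 4.90 and 0.647 for C/+ and 0.551 and 0.235 for C/C. Bmx, a tyrosine kinase of arterial endothelium, was at 0.284, 0.332 and 0.149 CPM in WT, 2.61, 2.05 and 0.176 for C/+ and 0.161 and 0.0521 for C/C. Sox17 was near level over the 3 C/+ libraries, whereas for Gja5 and Bmx C/+ 3 lay within the WT range. The Bmx value of C/+ 3 rests on 3 counts, against 80 and 44 in C/+ 1 and 2.

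The 2 venous genes went apart. Nr2f2, the venous transcription factor COUP-TFII, which other lung cells also use, was at 29.2, 33.4 and 30.0 CPM in WT, 30.3, 23.3 and 34.6 for C/+ and 28.4 and 27.4 for C/C. Slc6a2, the noradrenaline transporter, was at 4.73, 1.76 and 1.60 CPM in WT, 21.8, 18.6 and 7.82 for C/+ and 2.13 and 0.912 for C/C. Nr2f2 lay between 23.3 and 34.6 CPM in all libraries, and Slc6a2 was above WT in every C/+ library.

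The 4 lymphatic genes went apart. Prox1, the factor that specifies lymphatic endothelium (ENSMUSG00000010175, chromosome 1, 190118035 to 190170714), had 4, 5 and 6 counts in WT 1, 2 and 3, 2, 1 and 0 for C/+ and 1 and 0 for C/C, and was filtered out before testing. All 3 C/+ libraries were under 3 counts, a floor of 0.0979 to 0.176 CPM there, so Prox1 was not detectable above it. Mmrn1, multimerin 1, was between 0.0588 and 0.555 CPM in every library. Lyve1, a hyaluronan receptor of lymphatic endothelium that some macrophages also carry, was at 10.2, 4.32 and 1.58 CPM in WT, 22.3, 21.5 and 17.2 for C/+ and 1.54 and 2.09 for C/C. Flt4, VEGF receptor 3, was at 4.11, 0.901 and 0.502 CPM in WT, 8.32, 9.05 and 5.76 for C/+ and 0.551 and 0.209 for C/C. Lyve1 and Flt4 were thus highest in C/+ while Prox1 was at or near 0 counts in the same libraries.

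Levels can be set against each other between genes per transcript length, in TPM, which divides counts by exon length and scales each library to the same sum. In C/+, Esam was first at 141 ± 27 TPM (SD, n = 3), followed by Cldn5 at 90.9 ± 34.9, Tmem100, a membrane protein of lung endothelium, at 73.1 ± 21.0, Cav1 at 71.8 ± 24.3, Cdh5 at 69.9 ± 13.5 and Plvap at 67.2 ± 19.2. The neighbours from Cldn5 to Plvap differed by less than their SDs. Among genes of a subtype, Plvap led, Car4 was at 27.4 ± 12.3 TPM, Gpihbp1 at 18.2 ± 8.25 and Lyve1 at 15.7 ± 2.00, and neighbours among these 4 other than Plvap and Car4 differed by less than the wider of their SDs. Aplnr, Ednrb, Tbx2, Apln, Nr2f2, Kit, Sox17 and Slc6a2 followed between 5.75 and 9.17 TPM. Flt4 was at 2.11 ± 0.47 TPM, Gja5 at 1.27 ± 0.90, Bmx at 1.17 ± 0.92, Mmrn1 at 0.13 ± 0.10 and Prox1 at 0.01 ± 0.01. Within the 46 genes, Plvap and Car4 had the highest means of the subtype genes in C/+. Outside them Mgp, matrix Gla protein, listed here as arterial, was higher than Car4, at 42.0 ± 18.1 TPM in C/+. Fibroblast markers were also highest in C/+, and which cells gave the Mgp signal was not tested. Genes listed for other subtypes were higher still, such as Cd36 (general capillary) at 908 ± 33 TPM and Emp2 (aerocyte) at 157 ± 26. Those 2 genes did not follow the endothelial index. The arterial genes Gja5 and Bmx and the lymphatic genes Mmrn1 and Prox1 were the lowest of the 46.

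**Figure D3:**
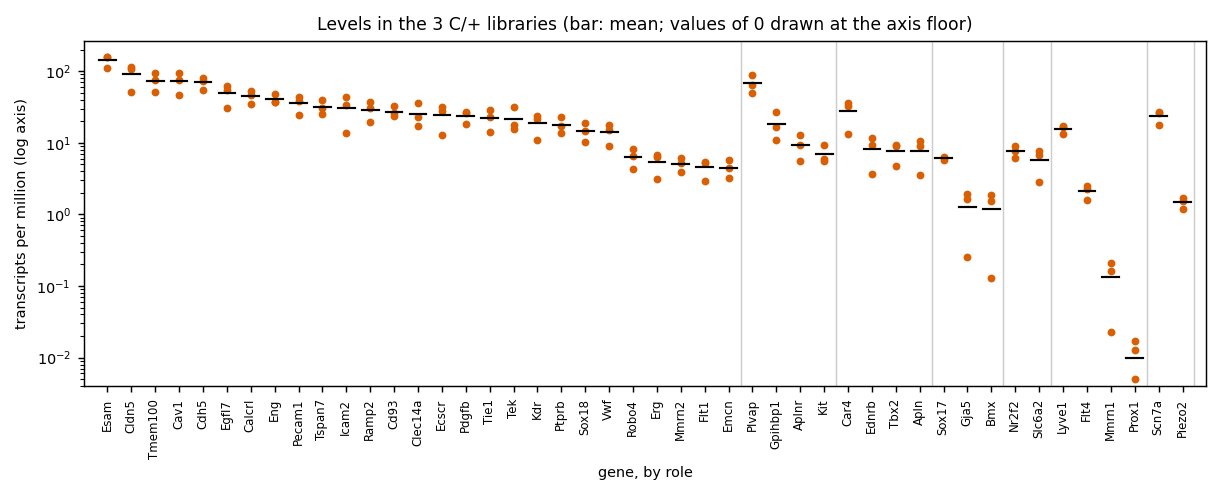
TPM (log axis) of each gene in the 3 C/+ libraries (orange points) with their mean (black bar), grouped by role along the x axis. Plvap at 67.2 and Car4 at 27.4 have the highest means of the subtype genes drawn, and Mmrn1 and Prox1 are the lowest genes at 0.13 and 0.01.

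Set against the core index of the same library, Kit and Aplnr took a smaller share in both C/C libraries than in any other library. So did genes of other roles, among them Sox17, Scn7a, Piezo2, Clec14a and Sox18. Per 100 CPM of the index, Car4 was at 3.81, 3.53 and 3.55 CPM in WT, 4.11, 4.0 and 2.49 for C/+ and 3.11 and 3.38 for C/C. Plvap was between 7.13 and 9.77 CPM per 100 in 7 libraries and at 4.97 in C/C 2. Kit was at 2.99 to 3.99 CPM per 100 in WT and 3.20 to 5.01 in C/+, and at 1.66 and 1.91 in C/C. Aplnr was at 1.61 to 3.49 CPM per 100 in WT, 1.96 to 2.62 for C/+ and 0.75 and 1.02 for C/C. Gpihbp1 was at 1.5 and 1.85 CPM per 100 in C/C, where WT 3 was at 1.84. Sox17 was at 0.70 and 1.08 CPM per 100 in C/C and at 1.38 to 2.73 elsewhere. Scn7a was at 5.85 and 3.12 in C/C and at 8.53 to 12.5 elsewhere, and Piezo2 at 0.59 and 0.64 against 1.23 to 1.95. Tbx2 went the other way, at 4.29 and 4.27 CPM per 100 in C/C against 1.63 to 2.93 in the other libraries. Gja5 ran from 0.14 in C/+ 3 to 1.29 in C/C 1, at few counts. The index itself differed in make-up: Egfl7, 1 of its 10 genes, made 35.7 and 39.8 CPM per 100 of it in C/C, 11.5 to 24.8 in WT and 10.3 to 12.7 for C/+. With Egfl7 left out of the index, an alternative chosen after seeing the data, Gpihbp1 was at 2.34 and 3.07 CPM per 100 in C/C and 2.45 to 3.01 in WT, and Sox17 at 1.08 and 1.80 in C/C and 1.68 to 2.93 in WT, so that both overlapped WT. Kit stayed lowest in C/C, at 2.59 and 3.18 against 3.67 to 5.59 elsewhere, as did Aplnr, at 1.17 and 1.70 against 1.82 to 4.26. Plvap was then at 13.0 and 8.26 in C/C and 8.97 to 11.1 elsewhere, and Car4 at 4.84 and 5.61 in C/C and 2.78 to 4.72 elsewhere. These shares are a description: the index and the genes come from the same libraries, and no test was made.

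**Figure D4:**
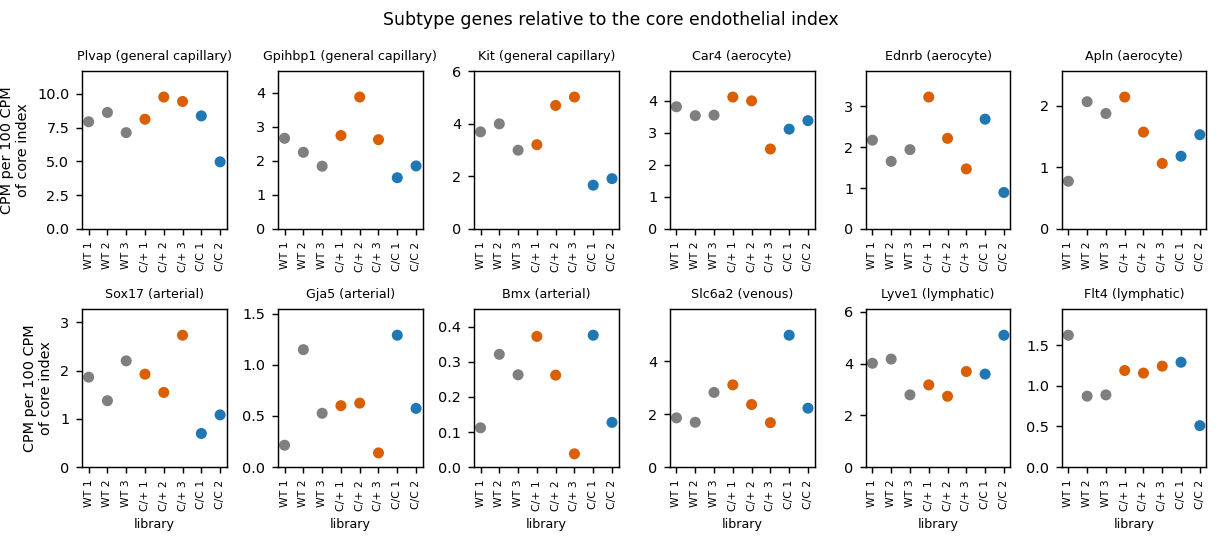
CPM of 12 subtype genes per 100 CPM of the core endothelial index (y axis, from 0) in each library (x axis), with WT in grey, C/+ in orange and C/C in blue. Car4 lies between 2.49 and 4.11 over the libraries, Kit is lowest in both C/C libraries at 1.66 and 1.91, and Gja5 and Bmx scatter within groups.

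In C/+ against WT, 43 of the 45 genes that passed the filter on low counts had a log2 fold change above 0, with Esam at -0.15 and Nr2f2 at -0.07 as the exceptions. The median was 2.33 (range -0.15 to 3.10), against 0.00 over all 14906 tested genes. By edgeR's quasi-likelihood test with Benjamini-Hochberg adjustment over all of them (adjusted p below 0.05), 33 were called higher where 3.42% of all tested genes were, and 40 had every C/+ library above every WT library where 14.1% did. None was called lower (0.503% of all), none was lower at an unadjusted p below 0.05 and DESeq2 also called 0 lower. These counts follow from how the genes were chosen. The genes not called were Pdgfb, Ptprb, Flt1, Sox18, Esam, Ednrb, Gja5, Bmx, Nr2f2, Lyve1, Flt4 and Mmrn1. All 4 general capillary genes were called, as were 3 of 4 aerocyte genes, 1 of 3 arterial, 1 of 2 venous and 0 of 3 tested lymphatic genes, of which 2 were higher at an unadjusted p below 0.05 and DESeq2 called Lyve1. The largest value was that of Erg, an ETS transcription factor of endothelium, at 3.10 ± 0.37 (SE). The count fell to 6 without WT 2, 8 without C/+ 1, 9 without C/+ 2 and 20 without WT 3. In those fits the calls over all tested genes, in either direction, went from 585 to 127, 103, 198 and 175.

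In C/C against C/+, which compares ChiaRed+ cells of the 2 reporter genotypes, 44 of the 45 genes had a log2 fold change below 0 and Esam was at 0.04. The median was -4.24 (range -5.44 to 0.04), against -0.01 over all tested genes. By edgeR's test 40 were called lower where 5.33% of all tested genes were, and 42 had both C/C libraries below every C/+ library where 20.2% did. None was called higher (1.75% of all), 0 were higher at an unadjusted p below 0.05 and DESeq2 called 0 higher. This contrast uses the C/+ libraries whose high level led to the choice of the genes, so it carries no test of them either. The lowest values were those of Piezo2, a mechanically gated ion channel, at -5.44 ± 0.57 (SE), Aplnr at -5.34 ± 0.62 and Scn7a, a sodium channel gene, at -5.32 ± 0.52. The genes not called were Bmx, Gja5, Nr2f2, Esam and Mmrn1. The median was -4.279 without C/C 1 and -4.005 without C/C 2, and fewer genes passed, among the 45 and over all tested genes. Each of these fits leaves 1 C/C library that is assumed to vary like the other groups.

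In C/C against WT every one of the 45 genes had a log2 fold change below 0, with a median of -1.86 (range -2.97 to -0.10) against -0.03 over all tested genes. This contrast did not choose the genes, but it shares the WT libraries with the one that did. By edgeR's quasi-likelihood test 6 genes were lower in C/C where 1.36% of all tested genes were: Scn7a at -2.78 ± 0.48 (SE, adjusted p = 0.021), Piezo2 at -2.82 ± 0.56 (adjusted p = 0.034), Aplnr at -2.97 ± 0.60 (adjusted p = 0.037), Sox17 at -2.74 ± 0.59 (adjusted p = 0.041), Calcrl, the receptor of adrenomedullin and CGRP, at -2.54 ± 0.58 (adjusted p = 0.046) and Kit at -2.75 ± 0.64 (adjusted p = 0.049). In all 6 both C/C libraries lay below the 3 WT libraries. That held for 26 of the 45 genes, where 22.6% of all tested genes had every C/C library below WT, and for 0 of 45 in the other direction, where 20.8% had every library above. At an unadjusted p below 0.05, 33 genes were lower (12% of all tested genes) and 0 were higher (10.1%), none was called higher (1.62%) and DESeq2 called 19 lower and 0 higher. Cdh5 was at -1.95 ± 0.57 (adjusted p = 0.087 by edgeR), Gpihbp1 at -2.27 ± 0.73 (adjusted p = 0.11) and Car4 at -1.91 ± 0.64 (adjusted p = 0.12), and these 3 did not pass. The count of 6 became 23 without WT 3, 12 without C/+ 3, 1 without C/+ 2 and 0 without WT 2, C/C 1 or C/C 2, and it was 33 with no filter on low counts. Over all tested genes, calls in either direction went from 444 to 281, 782, 178 and 39 without WT 3, C/+ 3, C/+ 2 and WT 2. They were 1456 with no filter. The median log2 fold change of the 45 genes became -1.02 without WT 1, the WT library with the highest endothelial index.

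**Figure D5:**
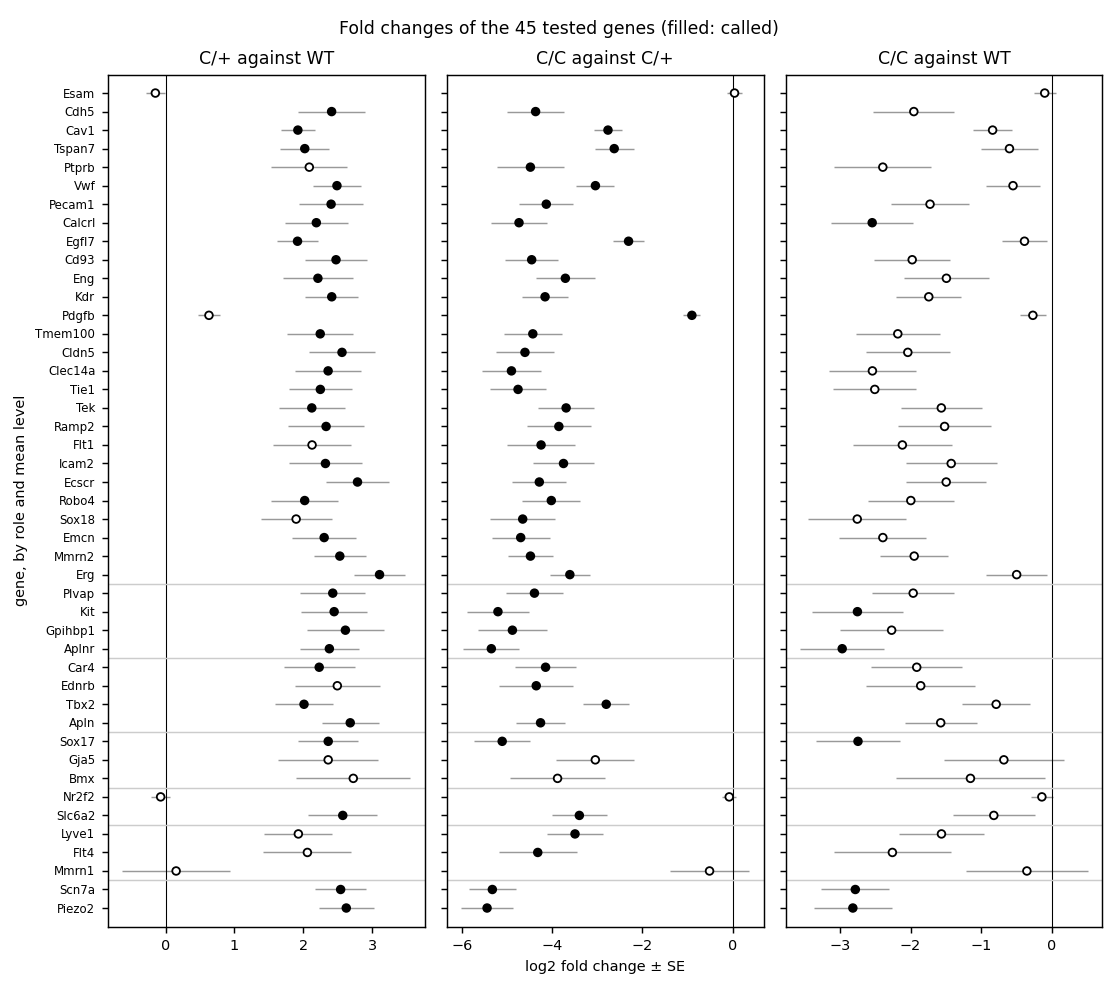
Log2 fold change with its SE (x axis) of the 45 tested genes (y axis, by role and mean level) in the 3 comparisons; filled points passed the adjusted p threshold of 0.05. Most points sit to the right of 0 in C/+ against WT and to the left in both others, and Esam and Nr2f2 lie near 0 in every panel.

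Other endothelial genes, 62 listed and 55 tested, come from the same libraries and are therefore no separate support. The list was also made with earlier results of these data known, so differences that involve C/+ are a description here too. In C/+ against WT 27 of the 55 were called higher and 0 lower, where 3.42% and 0.503% of all tested genes were. At an unadjusted p below 0.05 by edgeR 0 were lower, and DESeq2 called 0 lower. The median log2 fold change was 2.03. Acvrl1, the BMP9 and BMP10 receptor ALK1, was at 45.2, 14.3 and 8.61 CPM in WT, 123, 139 and 62.5 for C/+ and 5.64 and 6.07 for C/C. Its log2 fold change was 2.25 ± 0.52 (SE) in C/+ against WT. Podxl, a sialomucin, Sema3c, a semaphorin, and Prx, periaxin, rose with it by 2.18, 1.68 and 1.32 on the log2 scale. Of 6 tested general capillary genes in this list 1 was called higher (Sema3c, median of the 6 at 1.51), and of 6 tested aerocyte genes 1 (Prx, median 0.81). Of 9 tested genes listed as arterial 8 were called higher (median 2.34). Among them were Efnb2, the arterial ephrin-B2, and Cxcl12, a chemokine, at 1.37 ± 0.17 and 2.54 ± 0.53. In C/C against WT, Mgp and Fbln2 of this list were at -0.08 and -0.73, and Cxcl12 and Gja4 at -1.94 and -2.37. The fibroblast genes Col1a1 and Dcn were at -0.59 and -0.60 there, and which cells carried these transcripts was not tested. Of 7 tested venous genes (median 1.84), Selp, Prss23 and Amigo2 were called higher in C/+ than in WT. Of 4 tested lymphatic genes 1 was higher at an unadjusted p below 0.05, and it did not pass the adjustment. Ccl21a was at 0 counts in every library. The count of 27 fell to 6 without C/+ 1, 7 without WT 2, 9 without C/+ 2, 11 without WT 3 and 17 without C/C 1 or C/C 2.

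In C/C against C/+ 41 of the 55 were called lower and 0 higher, where 5.33% and 1.75% of all tested genes were. At an unadjusted p below 0.05 by edgeR 1 was higher, and DESeq2 called 0 higher. Ephb4, a receptor of ephrin-B2 in veins, was at 48.0, 47.0 and 43.8 CPM in WT, 57.5, 60.8 and 48.2 for C/+ and 36.9 and 37.4 for C/C. It was among those called and fell by 0.58 on the log2 scale (SE 0.12). The count of 41 fell to 13 without C/C 1 and 11 without C/C 2. In C/C against WT 3 were called lower where 1.36% of all tested genes were: Efnb2 at -0.92 ± 0.19 (adjusted p = 0.038 by edgeR), Gja4, connexin 37, at -2.37 ± 0.52 (adjusted p = 0.044) and Sox7, a SOX factor, at -3.15 ± 0.70 (adjusted p = 0.045). That count became 12 without WT 3, 8 without C/+ 3, and 0 without C/+ 2, WT 2, C/C 1 or C/C 2.

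Several genes listed among the other endothelial genes were present in every library of the epithelial gate, at levels from low to high, and did not follow the endothelial index. Cd36, a fatty acid transporter, ran from 1308 to 1556 CPM over the 8 libraries, and Adgrf5, an adhesion receptor, from 780.0 to 1230.1. Emp2, a tetraspan membrane protein, ran from 488 to 744 CPM, Nrp1, a VEGF co-receptor, from 381 to 485, Car8 from 464 to 697, Itga9, an integrin, from 293 to 403, Lpl, lipoprotein lipase, from 68.9 to 108 and Tbx1 from 8.88 to 15.7. The lowest adjusted p of these 8 genes over the 3 comparisons was 0.204 by edgeR (Car8, higher in C/C than in C/+), and their log2 fold changes in C/C against C/+ lay between -0.15 and 0.35.

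Ligands of the receptors among the 46 genes were read in the same libraries, 17 listed and 12 tested. That list too was made with earlier results of these data known, so differences that involve C/+ are a description. Vegfa, the ligand of Kdr and Flt1, was at 273, 267 and 231 CPM in WT, 207, 233 and 255 for C/+ and 267 and 277 for C/C. Its log2 fold change was -0.15 ± 0.11 (SE) in C/+ against WT, and it was not called. Vegfb, a ligand of Flt1, was at 35.3 to 40.8 CPM in WT, 37.7 to 51.3 for C/+ and 45.4 and 59.0 for C/C. Kitl, the ligand of Kit, was at 8.84, 6.78 and 4.72 CPM in WT, 31.1, 19.5 and 13.5 for C/+ and 4.73 and 3.94 for C/C. Kitl was called higher in C/+ than in WT, by 1.67 ± 0.31 (SE) on the log2 scale. Edn1, endothelin 1, the ligand of Ednrb, was at 4.71, 2.18 and 2.32 CPM in WT, 9.56, 12.4 and 7.76 for C/+ and 3.37 and 1.67 for C/C. Edn1 was also called higher in C/+ than in WT, by 1.68 ± 0.36. Kitl, Edn1 and Angpt1, a ligand of Tek, were called lower in C/C than in C/+. Of all tested genes, 5.33% were called lower in that comparison and 3.42% higher in C/+ against WT. None of the 12 was called in C/C against WT, and DESeq2 called 0. At an unadjusted p below 0.05 by edgeR 1 was lower there and 1 higher, where 12% and 10.1% of all tested genes were. The 2 calls in C/+ against WT fell to 0 without C/+ 1, C/+ 2, WT 2 or WT 3, and the 3 calls in C/C against C/+ fell to 1 without C/+ 2 and 0 without C/C 1 or C/C 2.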

How the data were processed

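RNA of sorted EpCAM+CD45- lung cells was made into stranded mRNA libraries, per the labels' protocols. The deposited file holds whole-number read counts per Ensembl gene for 8 libraries with no scaling. STAR 2.4.2a and DESeq2 are listed without their roles in the submitters' processing notes, as is the human build GRCh38, although the gene identifiers are of mouse. The counting tool, its strand setting and the annotation are not given in the sources consulted, so antisense and overlapping genes cannot be told apart. Symbols (42462 of 43432 identifiers), positions and exon lengths came from GENCODE M21 (GRCm38).

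Counts were scaled by TMM (factors 0.915 to 1.06) to CPM, and TPM used exon length. Genes passing edgeR's filterByExpr (14906) were fitted with edgeR 4.0.16 (R 4.3.3), quasi-likelihood, 1 mean per group over all 8 libraries, two-sided, Benjamini-Hochberg adjusted over all tested genes. SE is the log2 fold change divided by the square root of F. The scripts were tested on simulated data. DESeq2 1.42.0, other filters and scalings, covariates and leaving out each library were alternatives. Sampling of counts is not the limit for abundant genes; the floor is 3 counts, for counting error only.

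The 46 genes and all lists were chosen with earlier results of these data known. Printed library by library were 5 markers, the 6 shared endothelial genes of highest mean CPM and up to 4 per other role; of other endothelial and ligand genes, the 2 of highest mean CPM per role and up to 4 called per comparison. Genes singled out beyond that, for a largest or lowest value or for lying flat, were chosen after their values were seen. So were the 3 promoter stretches: the highest-CPM gene of a role with at least 150 exon-free bases was taken, and the roles shown were narrowed after the first search.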

Additional observations from a re-analysis of the deposited data

How the results depend on the processing

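Directions changed less than counts did, but the genes were chosen with their high level in C/+ known. Their signs in the comparisons with C/+ follow largely from that choice, and no share over all tested genes was computed. A gene filtered out of a fit was counted as keeping its sign there. Of the 45 genes, 42 kept their sign in every fit that left out 1 library in C/+ against WT, 42 in C/C against C/+ and 43 in C/C against WT, whereas 6, 17 and 0 were called in every such fit. Leaving out 1 library in turn moved the calls among the 46 genes between 6 and 39 in C/+ against WT, 18 and 42 in C/C against C/+, and 0 and 23 in C/C against WT, and the median log2 fold change between 1.93 and 3.131, -4.473 and -3.984, and -2.264 and -1.016. For other endothelial genes the calls lay between 6 and 34, 11 and 43, and 0 and 12, and for ligand genes between 0 and 3, 0 and 3, and at 0. In C/C against WT the 6 calls became 19 with DESeq2's Wald test, 33 with no filter on low counts, 16 with a replicate block, 24 with sex, read from Xist and Ddx3y, as a covariate and 3 with the compared groups alone; the 3 other endothelial calls became 11, 28, 8 and 16 under the first 4 of these, and the 0 ligand calls became 1 with no filter. Over all tested genes, calls in either direction in C/C against WT were 444 in the main fit. They were 1470 with DESeq2's Wald test, 1456 with no filter, 176 with the replicate block, 1348 with sex and 588 with the compared groups alone. The other endothelial calls in C/+ against WT became 17 with the compared groups alone, where calls over all tested genes went from 585 to 356. Replicate numbers did not pair the libraries (correlations of same-numbered deviations from -0.206 to 0.087); with the replicate block the calls among the 46 genes were 39, 42 and 16 in the 3 comparisons, and the median in C/C against C/+ became -4.527. Calls over all tested genes with that block were 457, 799 and 176. The causes were not tested. WT 2, WT 3 and C/+ 1 read as male and the other 5 libraries as female. Read depth limits Prox1, Mmrn1, Bmx and Gja5.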
